A study of Bos taurus with 8 samples.

Results

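A set of 8 nuclear genes of mitochondrial respiration was made up of *NDUFS3*, *NDUFA3* and *NDUFA13* (complex I), *UQCRC1* (complex III), *CYCS* (cytochrome c), *COX17* (assembly of complex IV), and *ATP5PD* and *ATP5MF* (ATP synthase). They were followed across 8 RNA-Seq libraries of bovine blastocysts to see how closely their transcripts moved together. They are 8 of the 27607 genes counted in each library and 8 of the 9 genes that the study lists for oxidative phosphorylation. They were chosen by a measured value, their higher abundance in blastocysts from pubertal than from prepubertal heifers oocytes in these same libraries. The difference between the groups is therefore given below as a description without a test, and the correlations are descriptions too.

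Each library was made from total RNA of a pool of about 5 day 7 blastocysts of good morphological grade, produced in vitro with semen of the same bull. The oocytes came from Polish Holstein-Friesian heifers. The prepubertal donors were younger than 10 months and had no dominant follicle or corpus luteum, and the pubertal donors were older than 15 months and had one. The labels give all samples as female. Oocytes were pooled within each group and no source used here ties a library to its donors, so the spread between libraries may be technical in part. In RNA from whole embryos, fewer cells of a type and less RNA per cell cannot be told apart.

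The sample labels and the study's own tables disagree on 2 libraries. The tables place samples 1, 2, 3 and 8 in the prepubertal group and samples 4, 5, 6 and 7 in the pubertal group, and these groups were used here. The labels call sample 4 prepubertal and sample 8 pubertal. The main summaries are therefore also given with the groups of the labels, namely the count of genes whose groups did not overlap, the differences between the groups over the 8 genes and the correlations around the group means. Other values, the correlations within a single group among them, are given for the groups of the tables alone. Sample 4 had more CPM (counts scaled to the total of reads on genes) than each of samples 1, 2 and 3 in 7 of the 8 genes, and sample 8 had less than each of samples 5, 6 and 7 in 8 of the 8. These counts are not independent evidence of the groups, since the genes were chosen with the tables' groups. The share of all genes with the same order of samples was not taken, so nothing is read from these counts.

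Reads on genes numbered between 20112044 and 24831086 in the prepubertal libraries and between 18510164 and 29549143 in the pubertal ones. Samples 3 and 7 stood apart from the rest. They had the fewest reads on genes, the largest shares of uniquely mapped reads outside genes (54.1% and 47.5%, against 35.8% to 41.6% in the other 6) and the most genes with at least 1 read (24203 and 24044). Results that rest on them are given with and without them. The defining markers of the blastocyst's cell types could not be checked, since names were paired with only 52 of the identifiers.

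Oxidative phosphorylation couples the oxidation of NADH and succinate to ATP synthesis at the inner mitochondrial membrane. Electrons pass from complex I or complex II through ubiquinone to complex III, and from there on cytochrome c to complex IV, where oxygen is reduced. The protons pumped on the way drive ATP synthase, complex V. Most subunits are encoded in the nucleus, and a few core subunits in mitochondrial DNA. The 8 genes are all nuclear and sample complexes I, III and V, the mobile carrier and an assembly factor of complex IV. In the RefSeq gene table of the ARS-UCD2.0 assembly they lie on 8 different chromosomes, so none is a neighbour of another.

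Complex I, which takes electrons from NADH, was represented by *NDUFS3* (ENSBTAG00000018483), a core subunit of the arm that reaches into the matrix. It had 46.3, 40.6, 41.3 and 39.2 CPM in the prepubertal samples 1, 2, 3 and 8. It had 50.0, 54.5, 51.4 and 54.4 CPM in the pubertal samples 4, 5, 6 and 7. The groups did not overlap, and sample 1 was the prepubertal library nearest to the pubertal ones.

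*NDUFA3* (ENSBTAG00000007754) and *NDUFA13* (ENSBTAG00000007812) encode accessory subunits of complex I. *NDUFA3* had 32.7, 25.9, 33.3 and 28.6 CPM in samples 1, 2, 3 and 8, and 37.02, 42.4, 38.9 and 34.8 CPM in samples 4, 5, 6 and 7. The groups did not overlap, although sample 3 lay close below sample 7. *NDUFA13*, also known as GRIM19, had 41.6, 38.6, 45.0 and 41.6 CPM in samples 1, 2, 3 and 8, and 62.8, 44.3, 56.7 and 47.3 CPM in samples 4, 5, 6 and 7. Its groups overlapped, because the pubertal sample 5 lay below the prepubertal sample 3. The coefficient of variation of *NDUFA13* over the pubertal libraries was 16.2%, against 6.35% over the prepubertal ones and a counting error of 2.80% expected from its reads.

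*UQCRC1* (ENSBTAG00000019096) encodes a core protein of complex III, which passes electrons from ubiquinol to cytochrome c. It had 249.7, 183.5, 191.2 and 175.9 CPM in samples 1, 2, 3 and 8, and 230.1, 258.5, 273.9 and 254.0 CPM in samples 4, 5, 6 and 7. Here the groups overlapped through a single library: sample 1 exceeded the pubertal sample 4, while the other 3 prepubertal libraries lay below every pubertal one.

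*CYCS* (ENSBTAG00000022613) encodes cytochrome c, the soluble carrier between complexes III and IV, which also triggers caspase activation when it leaves the mitochondrion. Its values were 83.9, 86.4, 89.3 and 81.5 CPM in the prepubertal samples 1, 2, 3 and 8, and 100.8, 109.9, 111.7 and 93.2 CPM in the pubertal samples 4, 5, 6 and 7. *COX17* (ENSBTAG00000002182) encodes a copper chaperone that is needed to assemble complex IV and is not one of its subunits. It had 43.4, 47.6, 50.5 and 48.5 CPM in samples 1, 2, 3 and 8, and 56.1, 58.8, 57.5 and 53.3 CPM in samples 4, 5, 6 and 7. In both genes the groups did not overlap and the pubertal sample 7 was the one nearest to the prepubertal range. Sample 1, the highest prepubertal library for *UQCRC1*, was the lowest of all 8 for *COX17*.

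*ATP5PD* (ENSBTAG00000021227) encodes subunit d of the peripheral stalk of ATP synthase, and *ATP5MF* (ENSBTAG00000002094) subunit f of its membrane part. *ATP5PD* had 197.1, 166.7, 175.2 and 166.1 CPM in samples 1, 2, 3 and 8, and 201.1, 236.4, 215.6 and 218.2 CPM in samples 4, 5, 6 and 7. *ATP5MF* had 90.9, 92.4, 100.7 and 98.2 CPM in samples 1, 2, 3 and 8, and 107.0, 112.8, 124.8 and 106.4 CPM in samples 4, 5, 6 and 7. The groups did not overlap for either gene, but sample 1 came close to sample 4 for *ATP5PD*, while it was the lowest library for *ATP5MF*. CPM is not scaled to transcript length, so levels of different genes in this and the preceding paragraphs are not ranked against each other.

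**Figure D1:**
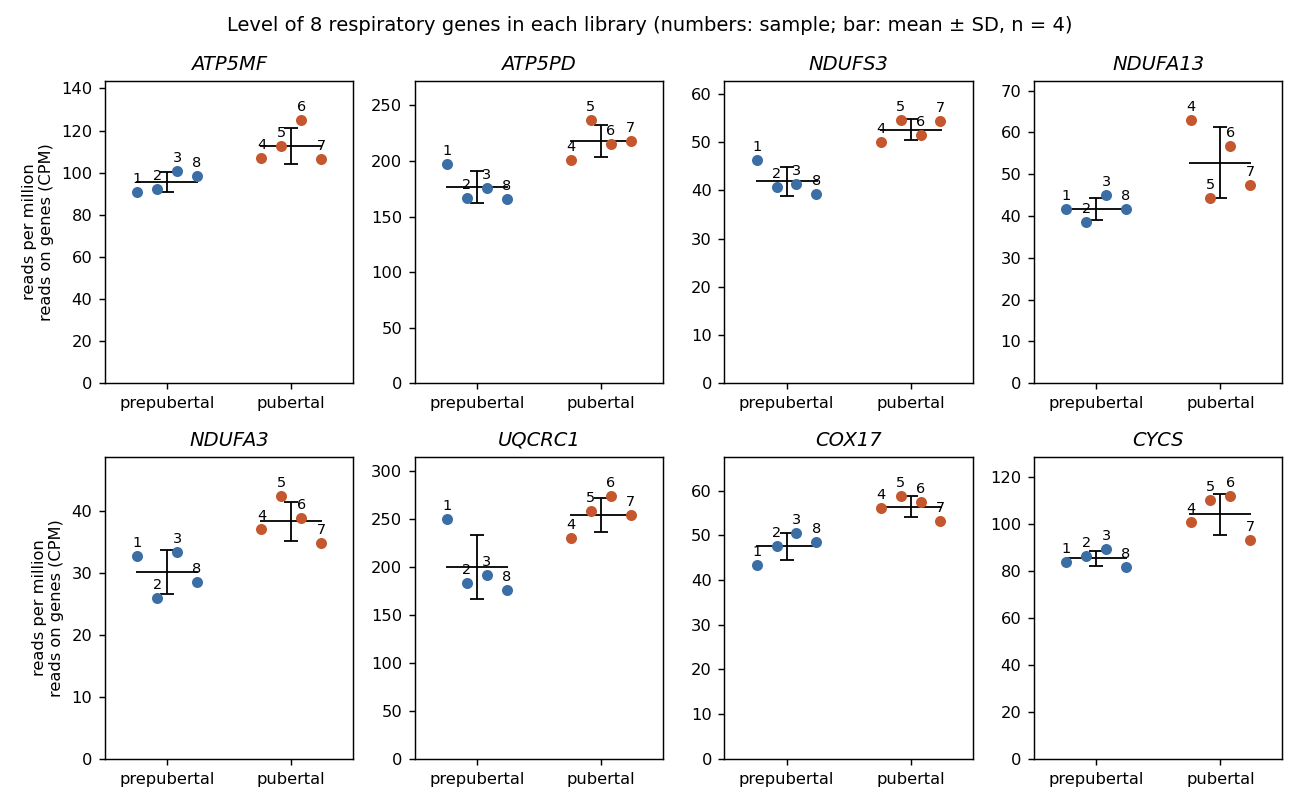
Level of each gene in every library (vertical axis, CPM, starting at 0) by group, with points labelled by sample number and bars showing the mean ± SD over 4 libraries. The groups overlap for *NDUFA13* through sample 5 and for *UQCRC1* through sample 1.

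The ratio of the mean CPM of the pubertal to that of the prepubertal libraries lay between 1.18 for *ATP5MF* and 1.27 for *NDUFA3*. In the edgeR fit over all 15513 genes that passed its low-count filter, the log2 difference of the 8 genes lay between 0.28 (standard error 0.09) for *ATP5MF* and 0.39 (standard error 0.125) for *NDUFA3*, with a median of 0.36 against -0.02 over all genes. These are the values that chose the genes. With the groups of the labels the median of the 8 was 0.20. With the thresholds of 0.05 for the adjusted p and 1.2 for the fold, edgeR's quasi-likelihood test called 0 of all genes tested (0%), with 1681 genes at an unadjusted p under 0.05, and DESeq2 called 128 of 13933 genes (0.919%). With the groups of the labels edgeR called 0, with 1134 genes at an unadjusted p under 0.05. None of the 8 was among the genes called by DESeq2. The study used DESeq2 with the same thresholds and lists all 8 as differing, and it reports qPCR results in the same direction. Why the calls here depart from those of the study was not tested. The counts of genes called are given as background, and nothing is read from them about the 8.

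The groups did not overlap in 6 of the 8 genes, all higher in the pubertal libraries, beside 365 of the 15513 genes (2.35%) in that direction. This is the same contrast that chose the genes, and nothing is read from the count. Which genes overlapped depended on the scaling. In CPM they were *NDUFA13* and *UQCRC1*, and with edgeR's TMM factors, with DESeq2's size factors and with upper-quartile factors they were *ATP5PD* and *UQCRC1*. With the groups of the labels all 8 overlapped. The 2.35% over all genes was taken in CPM with the groups of the tables alone, so nothing is read from this count either.

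To find the libraries that carried the difference, the log2 CPM of each gene was set against its own mean over the 8 libraries, and the mean of these 8 values was taken as the shared level of a library. It was -0.08, -0.22, -0.10 and -0.20 in samples 1, 2, 3 and 8, and 0.12, 0.18, 0.21 and 0.09 in samples 4, 5, 6 and 7. Samples 2 and 8 were the lowest, samples 5 and 6 the highest, and samples 1, 3 and 7 lay nearest to the middle. Summed over the 8 genes, the prepubertal libraries held 718.3 ± 49.8 CPM and the pubertal ones 888.7 ± 41.7 CPM (SD, n = 4 per group).

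The shift was present whichever single library was left out. Since the genes were chosen for it over these same libraries, this was largely fixed beforehand and is no sign of stability. The difference in shared level between the groups was 0.31 on the log2 scale. When single libraries were left out it ranged from 0.28 without sample 2 to 0.33 without sample 1. Without samples 3 and 7 it was 0.35, and over the 6 libraries on which labels and tables agree it was 0.30. With the groups of the labels it was 0.14.

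The 8 genes did not shift evenly within a library. The SD of their deviations was 0.13 (log2) in sample 1 and 0.13 in sample 4, and 0.07 in sample 6, where the values of all genes were between 0.13 and 0.29. In sample 1, *UQCRC1* stood at 0.16 and *COX17* at -0.25. In sample 4, *NDUFA13* stood at 0.43 and the other 7 genes between 0.04 and 0.13. In sample 5, *NDUFA13* stood at -0.08 while the other 7 lay between 0.12 and 0.32.

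**Figure D2:**
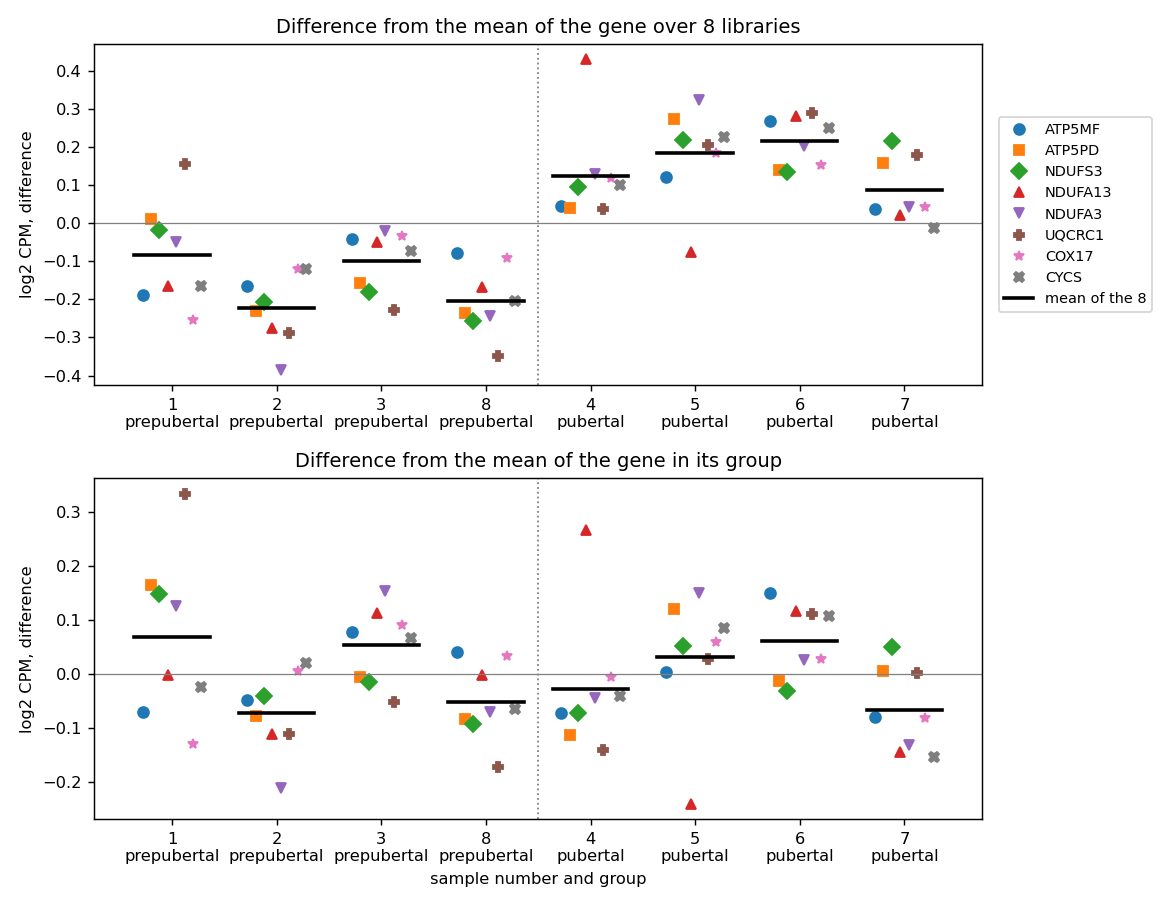
Difference in log2 CPM (vertical axis) of each gene from its mean over the 8 libraries (upper panel) and from its mean in its own group (lower panel), by sample, with a black bar at the mean of the 8 genes. In the upper panel the bar lies below 0 in samples 1, 2, 3 and 8 and above 0 in samples 4, 5, 6 and 7. *NDUFA13* departs from the other genes in samples 4 and 5.

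Over the 8 libraries every one of the 28 pairs of genes was positively correlated, with a median Pearson r of 0.74 for log2 CPM and a range from 0.46 for *ATP5PD* and *NDUFA13* to 0.98 for *ATP5PD* and *NDUFS3*. The median Spearman rho was 0.81. With the 2 libraries farthest from the median of the first gene of a pair left out, the median r was 0.72 and the lowest 0.07. Genes chosen for the same difference between 2 groups must correlate over these groups. The between-group difference held 66.7% of the summed variance of the 8 genes, so these values mostly restate the choice. Over all pairs of the 15513 genes tested the median r was 0.05, and 3.30% of the pairs reached 0.74.

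The correlation was therefore also taken around the group means, which removes the difference that chose the genes. The median r of the 28 pairs was then 0.19, with 18 pairs above 0 and 10 below, and the median Spearman rho of the deviations was 0.24. With the 2 libraries farthest from the median of the first gene's deviations left out, the median r was 0.18. Over all pairs of tested genes the median was 0.05, and 39.1% of pairs reached 0.19. Among the 4710 genes at least as abundant as *NDUFA3*, the lowest of the 8 in CPM, a comparison added once the values were known, 38.9% did. The fall from the value over all libraries follows in part from how the genes were chosen, and nothing is read from it.

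The correlation around the group means depended on the scaling and on the groups. With TMM factors, which scale sample 5 by 0.92 and sample 3 by 1.05, the median around the group means was 0.47, and 16.4% of all pairs of genes scaled in the same way reached it. With DESeq2's size factors it was 0.48 and with upper-quartile factors 0.36. Around the means of the labels' groups it was 0.74, with all 28 pairs above 0, since those groups leave more of the shift among the deviations. Without samples 3 and 7 it was 0.003, without sample 1 it was 0.41, and without sample 6 it was 0.07. A value over 8 libraries with 2 means removed thus ranged widely, and the pairs differed from each other more than the median shows.

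**Figure D3:**
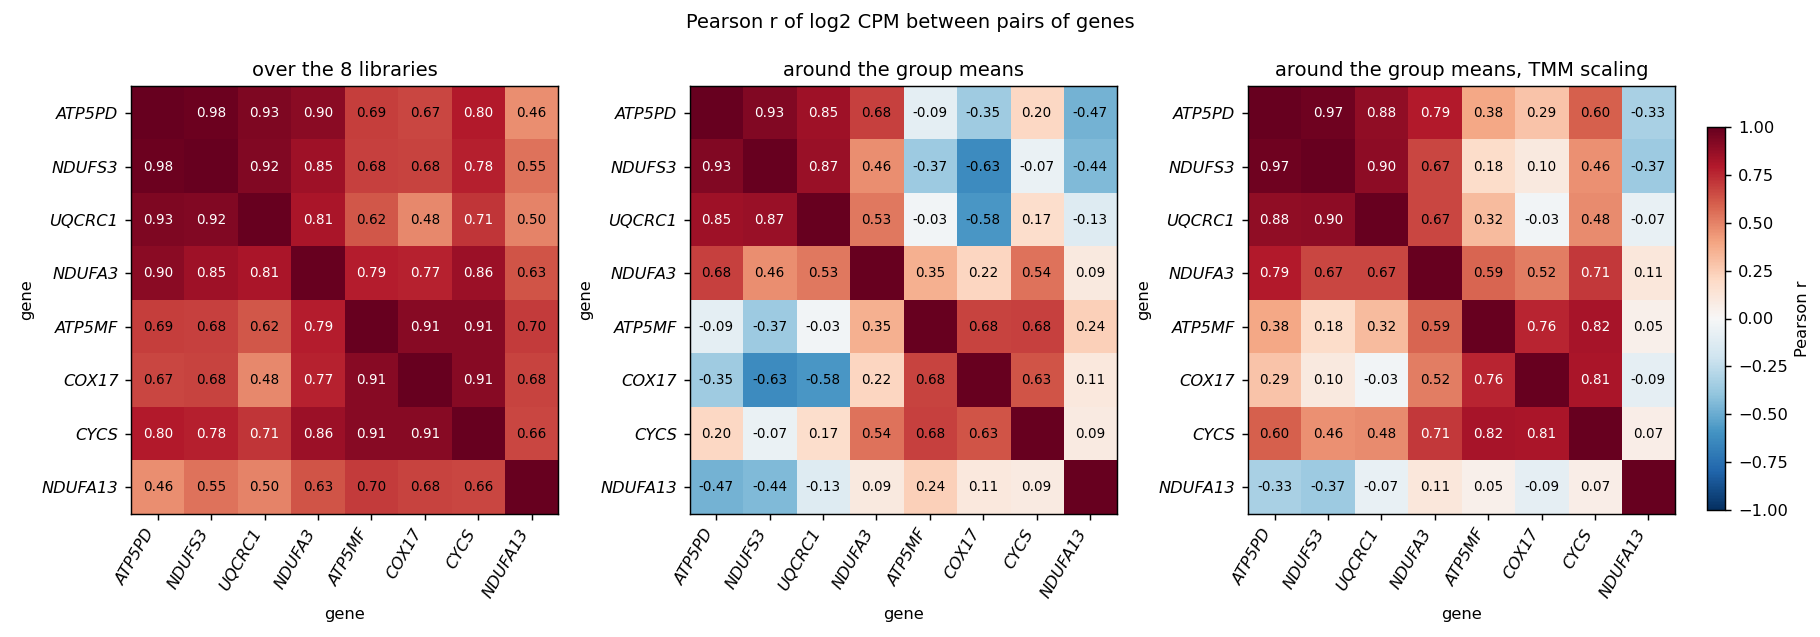
Pearson r of log2 CPM for the pairs of the 8 genes (rows and columns, colour scale from -1 to 1) over the 8 libraries, around the group means, and around the group means with TMM scaling. All pairs are positive on the left. Around the group means the pairs among *ATP5PD*, *NDUFS3* and *UQCRC1* range from 0.85 to 0.97 over both scalings.

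A first trio, picked after its values were seen, was made up of *ATP5PD* of ATP synthase, *NDUFS3* of complex I and *UQCRC1* of complex III. Around the group means r was 0.93 for *ATP5PD* and *NDUFS3*, 0.87 for *NDUFS3* and *UQCRC1*, and 0.85 for *ATP5PD* and *UQCRC1*. With TMM factors these were 0.97, 0.90 and 0.88, so the values were high under both scalings. Around the means of the labels' groups they were 0.97, 0.91 and 0.93. Those groups leave more of the shift that chose the genes among the deviations, so nothing is read from these 3 values. When single libraries were left out the lowest r of the trio was 0.53, reached without sample 1, in which the 3 genes together stood 0.22 (log2) above their prepubertal means. Without samples 3 and 7 the lowest was 0.85. *ATP5PD* and *NDUFS3* also ranked the libraries in exactly the same order within each group, as 1, 3, 2 and 8 in the prepubertal and 5, 7, 6 and 4 in the pubertal libraries. They belong to different complexes.

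A second trio, also picked after its values were seen, was made up of *ATP5MF* of ATP synthase, the copper chaperone *COX17* and the carrier *CYCS*. Around the group means r was 0.68 for *ATP5MF* and *CYCS*, 0.68 for *ATP5MF* and *COX17*, and 0.63 for *COX17* and *CYCS*. With TMM factors these were 0.82, 0.76 and 0.81. Around the means of the labels' groups, which leave more of the shift among the deviations, they were 0.92, 0.88 and 0.90. Without samples 3 and 7 the 3 values fell to between 0.19 and 0.51, so this trio rested in part on those libraries. Sample 7 was the lowest pubertal library and sample 3 the highest prepubertal library for each of the 3 genes.

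Between the trios the median r around the group means was -0.09, with the lowest value, -0.63, for *NDUFS3* and *COX17*. This sign was not stable. Without sample 1 the median was 0.37, and with TMM factors it was 0.32, with -0.03 for *UQCRC1* and *COX17* as the only value below 0. Around the means of the labels' groups, which leave more of the shift among the deviations, the values between the trios lay between 0.38 and 0.75. The 2 genes of ATP synthase, *ATP5PD* and *ATP5MF*, fell in different trios, with r of -0.09 around the group means in CPM and 0.38 with TMM factors. *NDUFA3* was positively correlated with each of the other 7 genes around the group means, from 0.09 with *NDUFA13* to 0.68 with *ATP5PD*. Without samples 3 and 7 its r was negative with *COX17* (-0.50), *NDUFA13* (-0.32) and *ATP5MF* (-0.03), and between 0.13 and 0.92 with the other 4.

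In the 4 prepubertal libraries the r of *NDUFA13* was positive with each of the other 7 genes, from 0.10 with *NDUFS3* to 0.86 with *NDUFA3*. In the 4 pubertal libraries it lay between -0.99 with *NDUFS3* and 0.12 with *ATP5MF*, and this difference was not tested. Taken over both groups, its r around the group means lay between -0.47 with *ATP5PD* and 0.24 with *ATP5MF*, and between -0.37 and 0.11 with TMM factors. Its partners in complex I, *NDUFS3* and *NDUFA3*, had r of -0.44 and 0.09 with it. With the groups of the labels, which leave more of the shift among the deviations, its r lay between 0.49 with *ATP5PD* and 0.84 with *ATP5MF*. *NDUFA13* stood 0.27 above its pubertal mean in sample 4 and 0.24 below it in sample 5, while *NDUFS3* stood 0.07 below and 0.05 above. Without both samples, computed for 4 of its 7 partners and not for *ATP5PD*, *NDUFS3* or *ATP5MF*, r around the group means was 0.79 with *NDUFA3*, 0.78 with *CYCS*, 0.56 with *COX17* and 0.20 with *UQCRC1*. With *ATP5PD* and *NDUFS3* it stayed negative whichever single library was left out. Without samples 3 and 7 it was negative with each of the other 7 genes, from -0.63 with *CYCS* to -0.06 with *ATP5MF*. Without sample 4, one of the 2 libraries whose group is in conflict, r of *NDUFA13* with *ATP5MF* was 0.78 and with *NDUFS3* -0.25. Without *NDUFA13* the median r of the remaining pairs around the group means was 0.35 (this setting was added once the values were known).

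Within single groups of 4 libraries the pairs ranged over nearly the whole scale, from -0.85 to 0.99 in the prepubertal and from -0.99 to 0.95 in the pubertal libraries, with medians of 0.27 and 0.36. Over 4 libraries such values are imprecise and are given as a description. The first trio had r of at least 0.98 in the prepubertal group, where samples 1 and 8 were the highest and the lowest library for each of its genes, and from 0.41 to 0.85 in the pubertal group.

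**Figure D4:**
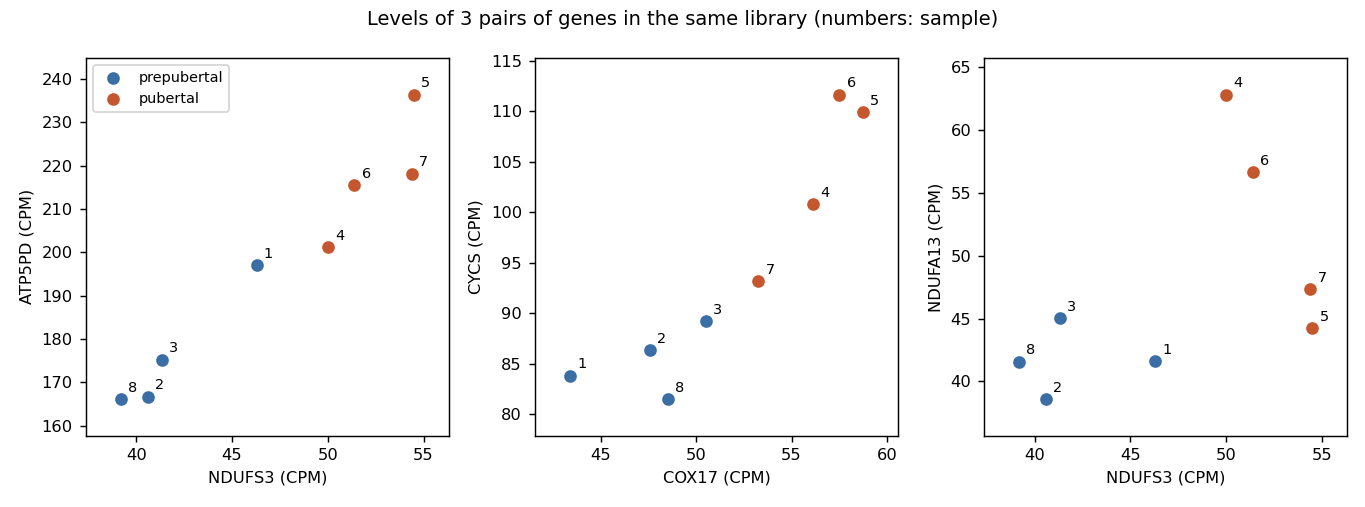
Levels of 3 pairs of genes in the same library (both axes in CPM and not starting at 0), with points coloured by group and labelled by sample number. *ATP5PD* follows *NDUFS3* through both groups, *CYCS* follows *COX17* more loosely, and *NDUFA13* is spread from 44.3 to 62.8 CPM over the pubertal libraries while *NDUFS3* changes little.

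The ratio of 2 genes in the same library does not depend on how libraries are scaled. The ratio of *ATP5PD* to *NDUFS3* reads was 4.26, 4.11, 4.24 and 4.24 in samples 1, 2, 3 and 8, and 4.02, 4.34, 4.19 and 4.01 in samples 4, 5, 6 and 7. Its coefficient of variation over the 8 libraries was 2.83%, no larger than the 3.33% that counting error alone would give. It was the lowest coefficient of variation of the 28 ratios, for the pair with the highest r, and is shown for that reason, so it is no independent evidence of a constant ratio.

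Other ratios within and between complexes varied more than counting error. For *NDUFA13* to *NDUFS3* of complex I, the ratio was 0.90, 0.95, 1.09 and 1.06 in samples 1, 2, 3 and 8, and 1.26, 0.81, 1.10 and 0.87 in samples 4, 5, 6 and 7. Its coefficient of variation was 14.7%, against a counting error of 4.24%. For *ATP5PD* to *ATP5MF* of ATP synthase the ratio was 2.17 in sample 1 and from 1.69 to 2.10 in the other 7 libraries, with a coefficient of variation of 9.81%. For *COX17* to *ATP5MF* it was 0.499 on average, with a coefficient of variation of 4.39% against a counting error of 3.48%.

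In each of the 28 ratios the groups overlapped. The genes were all chosen for a difference in the same direction, which a ratio of 2 of them largely cancels, so nothing is read from this. The coefficient of variation of the ratios over the 8 libraries ranged from 2.83% to 17.3%, with a median of 10.2%. For *UQCRC1* to *CYCS*, neighbours in the flow of electrons, the ratio was 2.35 ± 0.42 in the prepubertal and 2.45 ± 0.19 in the pubertal libraries (SD, n = 4 per group). Sample 1 had 2.98 and the other 3 prepubertal libraries 2.12 to 2.16. Of the reads on the 8 genes, *UQCRC1* took 31.8% in sample 1 and 25.9% to 29.5% in the other 7 libraries, and *COX17* 5.52% in sample 1 and 6.18% to 7.14% in the others. Since transcript lengths were not used here, these shares can be compared between libraries but not between genes.

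Counting error set a floor under these comparisons. The genes had between 626 reads (*NDUFA3*, sample 2) and 7695 reads (*UQCRC1*, sample 6) in a library. The expected counting error was 3.01% for *COX17* in the prepubertal group, where its CPM varied by 6.33%, and 1.48% for *UQCRC1*, which varied by 16.8%. Since the counts are of reads, this error covers the counting of reads and not of molecules. Reads that mapped to several loci were not counted, which leaves any gene with a near-identical copy uncertain, and the strand setting of the counting is not given.

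Measures of the libraries moved with the shared level in part. Among samples 1, 2 and 8 the share of uniquely mapped reads assigned to genes was 57.9% to 60.3%, and among samples 4, 5 and 6 it was 61.8% to 63.6%, so that over these 6 libraries it separated the groups as the shared level did, with r of 0.86. There the share and the group cannot be told apart. Samples 3 and 7 had only 45.4% and 52.1%, and their shared levels of -0.10 and 0.09 kept the sign of their groups. The choice of the genes on these same libraries favours that sign, so nothing is read from it. Over all 8 libraries r was 0.35 and rho 0.60, and around the group means r was -0.01. For the number of reads on genes r was 0.39 over the 8 libraries, 0.67 without samples 4 and 7, and 0.24 around the group means. The part of these measures in the difference between the groups was not tested.

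Removing the share of assigned reads together with the group left the median r of the 28 pairs at 0.18. Around the group means this share had r from -0.14 with *COX17* to 0.15 with *CYCS* among the 8 genes. Its removal could therefore change the median only a little, and nothing is read from the value. The share of mapped reads at several loci, highest in sample 8 at 17.2% and lowest in sample 7 at 11.5%, had r of 0.60 with *ATP5MF* and -0.61 with *NDUFS3* around the group means. Its part in the division between the trios was not tested.

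**Figure D5:**
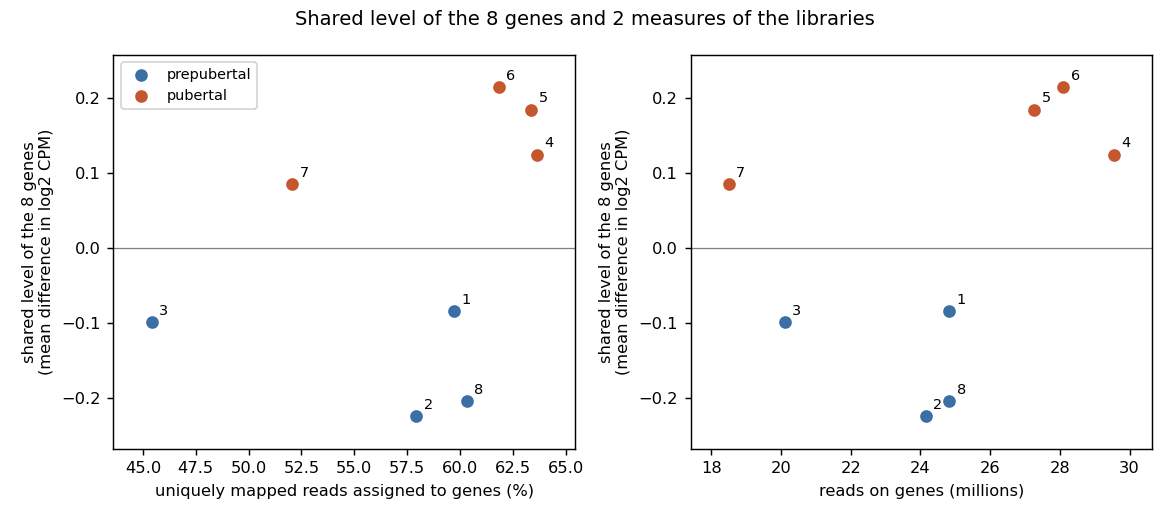
Shared level of the 8 genes (vertical axis, mean difference in log2 CPM) against the share of uniquely mapped reads assigned to genes in percent (left) and the number of reads on genes (right), with points coloured by group and labelled by sample number. Samples 3 and 7 have the lowest shares, 45.4% and 52.1%, and keep the sign of their groups, which the choice of the genes favours. Samples 4, 5 and 6 have the highest shares and shared levels above 0.

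Beyond the 8, names were paired with 44 further genes, all listed by the study as differing between the groups. *ATP12A*, the only other one listed for oxidative phosphorylation, encodes a proton and potassium pump outside the respiratory chain. It had 26.7, 24.9, 42.0 and 29.1 CPM in samples 1, 2, 3 and 8, and 19.4, 14.9, 15.7 and 21.2 CPM in samples 4, 5, 6 and 7. Its r with the shared level around the group means was -0.03 in CPM and -0.37 with TMM factors. Other genes of the pathway and the mitochondrially encoded subunits were not analysed here.

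The 4 named genes whose deviations from the group means were most like the shared level were *KMT5A* (r of 0.86 over 8 libraries), *PGD* (0.73), *DHODH* (0.70) and *PCK2* (0.68), and with TMM factors their r lay between 0.75 and 0.88. *KMT5A*, a histone H4 lysine methyltransferase, had 42.7, 33.0, 37.4 and 33.2 CPM in samples 1, 2, 3 and 8, and 43.7, 46.8, 51.7 and 45.8 CPM in samples 4, 5, 6 and 7. Like the shared level it was highest in samples 1 and 3 within the prepubertal and in samples 5 and 6 within the pubertal group. *DHODH*, an enzyme of pyrimidine synthesis that hands electrons to ubiquinone in the inner mitochondrial membrane, had 15.7, 14.9, 17.5 and 16.7 CPM in samples 1, 2, 3 and 8, and 20.1, 22.3, 25.0 and 19.2 CPM in samples 4, 5, 6 and 7.

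*PGD*, of the pentose phosphate pathway, and *PCK2*, the mitochondrial phosphoenolpyruvate carboxykinase, had their highest values in sample 6, with 409.5 and 54.3 CPM against at most 296.3 and 31.8 CPM in the other 7 libraries. The least alike in CPM were *UGP2* (r of -0.84), which makes UDP-glucose, *CA4* (-0.76), a carbonic anhydrase, and *ACP5* (-0.69), an acid phosphatase. With TMM factors these were -0.62, -0.84 and -0.79, and other named genes, down to -0.85, then ranked among or below them. *UGP2* was higher in the pubertal libraries by its mean, 116.9 ± 6.06 against 101.9 ± 6.91 CPM (SD, n = 4), yet had its lowest value, 91.95 CPM, in sample 1.

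Over all 15513 genes tested, the median r with the shared level around the group means was -0.08, and 31 genes (0.200%) reached 0.9. The 2 highest outside the 8 were ENSBTAG00000044061 (0.98) and ENSBTAG00000038034 (0.96), which carry no name here. Both were lowly expressed, at 3.85 to 12.3 and 5.29 to 7.86 CPM. Each of the 8 members is part of the shared level and so correlates with it in part by construction. Their own r ranged from 0.11 for *COX17* and 0.23 for *NDUFA13* to 0.90 for *NDUFA3*. With TMM factors these were 0.51, 0.09 and 0.92.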

How the data were processed

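Single-end reads were trimmed (Flexbar) and aligned by STAR to the bovine assembly ARS-UCD1.2, and the authors deposited raw counts per gene (HTSeq-count, Ensembl annotation 105) for 8 libraries. The labels also name RSEM, and no source used here gives tool versions. Rows for unassigned reads were left out of library sizes and tests. In each library they held 35.8% to 54.1% (outside genes) and 0.448% to 0.581% (ambiguous) of the uniquely mapped reads.

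CPM divided a gene's count by all reads on genes, and log2 CPM added 0.5 reads. Gene names came from the study's supplementary tables by identifier. Counts were fitted over all genes with edgeR 4.0.16 (filterByExpr, TMM, glmQLFit, glmQLFTest) in R 4.3.3 and with DESeq2 1.42.0. Other steps used Python 3.11.15. Counting error was taken as Poisson. The fits and correlations were tested on simulated data.

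Members, gene lists and alternatives were chosen with earlier results of these data known. Named were the 8 genes, *ATP12A*, the 5 most and 3 least alike named genes, of which 1 is not reported here, and 2 identifiers. Alternatives were other scalings, filters, tools and groups, leaving out libraries, rank correlation and a regression on the assigned share. Gene lengths, sequences, marker and pathway lists without paired names, and the qPCR and TUNEL data were not used here.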

Additional observations from a re-analysis of the deposited data

Results flagged for a closer look

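In 84 groups of 4 values (levels, shared level, ratios of genes and measures of libraries), 9 had a highest or lowest library whose gap to the next exceeded 0.829 of the group's range, a share of 10.7% where chance gives about 1 in 20. The groups share libraries and genes, so they are not independent. Of these, 4 concerned prepubertal ratios of the respiratory genes. Sample 1 was high for *ATP5PD* to *COX17* (4.54), *UQCRC1* to *COX17* (5.76) and *UQCRC1* to *CYCS* (2.98). Sample 2 was low for *ATP5PD* to *NDUFS3* (4.11), a gap that lies within the counting error of that ratio. The other 5 concerned the libraries themselves. In the prepubertal group sample 3 had the fewest reads on genes (20112044), the lowest share assigned to genes (45.4%) and the most genes with reads (24203), and sample 8 had the highest share of reads at several loci (17.2%). In the pubertal group sample 7 had the lowest share assigned to genes (52.1%).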

How the results depend on the processing

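Over the 128 values that the alternatives gave for single genes, the log2 difference lay between 0.05 (*NDUFA13*, groups of the labels) and 0.54. Its sign was largely fixed by the choice of the genes on these libraries and is no sign of stability. The groups of the labels changed the following summaries most, but left the number of genes called by edgeR at 0. With those groups the median pairwise r around the group means was 0.74 and the number of genes whose groups did not overlap was 0. The difference in shared level was 0.14 and the median log2 difference 0.20. The share of all genes whose groups did not overlap was taken with the groups of the tables alone. The median r between the 2 trios turned positive without sample 1 (0.37) and with TMM (0.32), DESeq2 (0.34) and upper-quartile (0.20) factors, and ranged from -0.36 to 0.37 with single libraries left out. With single libraries left out, the median pairwise r lay between 0.70 and 0.88 over the libraries and between 0.07 and 0.41 around the group means, and the number of non-overlapping genes was 6 or 7. Over all genes edgeR called 0, against 2 with DESeq2's size factors, 25 with no low-count filter, 11 over the 6 libraries without conflict and 0 to 8 with single libraries left out (8 without sample 4, 5 without sample 1, 4 without sample 8, 3 without sample 7), and DESeq2 called 128. No paired analysis was possible because the groups share no replicate number. Levels per transcript length could not be given without lengths. With 4 libraries in a group and as few as 626 reads on a gene, correlations within a group are imprecise.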
